A study of Mus musculus with 6 samples.

Results

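Guanylate-binding proteins (GBPs) were measured on Affymetrix arrays of islet RNA from mice whose labels state a PPAR-beta (Ppard) deletion and from littermate controls. The family was taken as the probe sets whose platform gene symbol is Gbp2, Gbp3, Gbp4, Gbp5, Gbp6, Gbp7 or Gbp8, and 8 of the 45037 probe sets compared met this rule. They stand for 5 of the 7 genes, among 18193 genes measured. Gbp2, Gbp6 and Gbp7 had a pair of probe sets each, and Gbp3 and Gbp8 had 1 each. Gbp4 appeared only on a probe set annotated with the symbols Gbp8 and Gbp4 together, which is described separately and counted for neither gene, and no probe set used here carried the symbol Gbp5. The members were selected by gene symbol, but the family itself was chosen on known values of the knockout against control contrast, in which Gbp6 had passed the test. Its differences between the groups are therefore given as a description, and the count of members past the threshold supports nothing by itself.

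The control group was 3 mice homozygous for floxed Ppard alleles (PPARbetafl/fl) without Cre, and the knockout group was 3 littermates with the same floxed alleles and a Cre transgene under the Pdx1 promoter (Pdx1Cre;PPARbetafl/fl), which is active in the developing pancreas. All were 8 weeks old on a mixed SV 129/C57BL/6 background, and each array held the islet RNA of a different animal. No group used here was Cre-positive with intact Ppard alleles, so the deletion and the Cre transgene cannot be told apart. The labels name the cell type as beta-cell, while the protocols describe whole islets purified on a gradient and name islets or pancreas as the RNA source, and markers of other cell types were present.

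GBPs are large GTPases of the dynamin superfamily that are induced by interferons, above all by interferon gamma. They bind to the membranes of pathogen-containing vacuoles and bacteria, help to break these open and promote inflammasome activation. Interferon gamma acts through its receptor, the JAK kinases and STAT transcription factors, and type I interferons act through the complex of STAT proteins with IRF9. STAT dimers bind the element called GAS, and the STAT and IRF9 complex and other IRF proteins bind the element called ISRE. In islets, interferons arise in viral infection and in autoimmune insulitis, and beta cells themselves respond to them.

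In mouse the genes form clusters on 2 chromosomes. In the order of the RefSeq annotation of GRCm38.p6, the protein-coding genes are Gbp5, Gbp7, Gbp3, Gbp2b and Gbp2 on chromosome 3, and Gbp8, Gbp9, Gbp4, Gbp10 and Gbp6 on chromosome 5, where the transcribed pseudogene Gbp11 follows. The promoter table of RefSeq held windows for the 5 genes of chromosome 3 and not for Gbp4, Gbp6 or Gbp8. The 250 bases before each start site were searched on both strands for a core of the ISRE, GAAANNGAA, which reads TTCNNTTTC on the other strand, and for the GAS letters TTCNNNGAA. An ISRE core was found before 5 of 5 genes, in 5 of 6 windows since Gbp3 has a pair of start sites. Over all 32851 windows of this length 7.13% held one. The stretches around these matches are shown because the same letters recur across the chromosome 3 cluster. Capitals mark the ISRE core letters, all read here on the strand that carries TTCNNTTTC, 5′ to 3′, and all genes lie on the plus strand of GRCm38.p6.

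Gbp2: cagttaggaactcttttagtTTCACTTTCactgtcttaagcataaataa
Gbp3: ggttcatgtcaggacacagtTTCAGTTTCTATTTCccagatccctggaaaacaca
Gbp5: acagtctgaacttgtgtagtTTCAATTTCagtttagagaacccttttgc
Gbp7: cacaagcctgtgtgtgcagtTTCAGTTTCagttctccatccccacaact
Gbp2b: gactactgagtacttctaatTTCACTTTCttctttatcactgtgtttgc

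The Gbp2 stretch is chr3:142620585-142620633, with the match 58 to 50 bases before the start site. The Gbp3 stretch is chr3:142559980-142560034, and its 2 overlapping matches span 44 to 30 bases before the start. In Gbp7 (chr3:142530264-142530312) the match lies 52 to 44 bases before the start. The matches of Gbp5 (chr3:142496750-142496798, 164 to 156 bases before the start) and of Gbp2b (chr3:142594691-142594739, 136 to 128) are farther from it. GAS letters were found before 2 of the 5 genes, Gbp5 and Gbp7, with 2 matches each and none overlapping an ISRE core, while 7.02% of all windows held them. The pair before Gbp7 (chr3:142530210-142530277) is shown with GAS letters in capitals because it lies just upstream of the ISRE core of that gene.

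Gbp7: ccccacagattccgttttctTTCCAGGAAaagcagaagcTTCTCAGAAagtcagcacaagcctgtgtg

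These matches describe letters in the reference sequence, and binding was not measured.

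Median log2 values per array lay between 5.39 and 5.49. Ppard itself did not read lower in the knockout arrays: its brighter probe set differed by 0.49 ± 0.20 (SE, limma adjusted p = 0.377) and its other by 0.35 ± 0.11 (limma adjusted p = 0.255). Since the deleted exon is not stated in the labels, these probe sets may lie outside it and check nothing, and the arrays are called knockout by their labels alone. Controls 2 and 3 held the most acinar RNA: the mean level of 12 acinar markers read 7.08, 10.96 and 10.89 across the controls, and 8.84, 6.05 and 6.32 across the knockouts. Values without controls 2 and 3, and with the acinar level as a covariate, are therefore given beside the members.

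All 8 member probe sets had a higher mean in the knockout group, by 0.33 to 2.44 on the log2 scale, with a median of 0.76. Over all probe sets the median difference was -0.017 and 46.7% had a higher mean. With limma, 3 of the 8 passed an adjusted p of 0.05, all 3 higher in the knockout group: both Gbp6 probe sets and Gbp8. Over all probe sets 0.897% passed in either direction, 0.713% as higher and 0.184% as lower. The knockout and control arrays did not overlap on 4 of the 8, with every knockout array above every control array, which held for 10.1% of all probe sets. Because the family was proposed with this contrast in view, nothing is read from these shares.

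Gbp8, in the chromosome 5 cluster, had the largest difference of the 8 member probe sets. Its probe set (annotated with a RefSeq transcript of Gbp8) read 7.72, 8.08 and 7.85 in controls 1 to 3 and 10.28, 10.37 and 10.31 in knockouts 1 to 3. The 3 knockout arrays lay within 0.090 of each other, and the lowest of them was 2.20 above the highest control. The group means were 7.88 ± 0.18 and 10.32 ± 0.047 (SD, n = 3 each), a difference of 2.44 ± 0.12 (SE) or 5.42-fold. Of all 45037 probe sets, 69 had a difference at least as large, which is 0.153%. The control level was not dim, at percentile 76.9 of all probe sets. Gbp8 was at its lowest in control 1, the highest control on 5 of the 8 member probe sets. Against control 1 alone the difference was 2.60, and it was 2.53 with the acinar covariate.

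**Figure D1:**
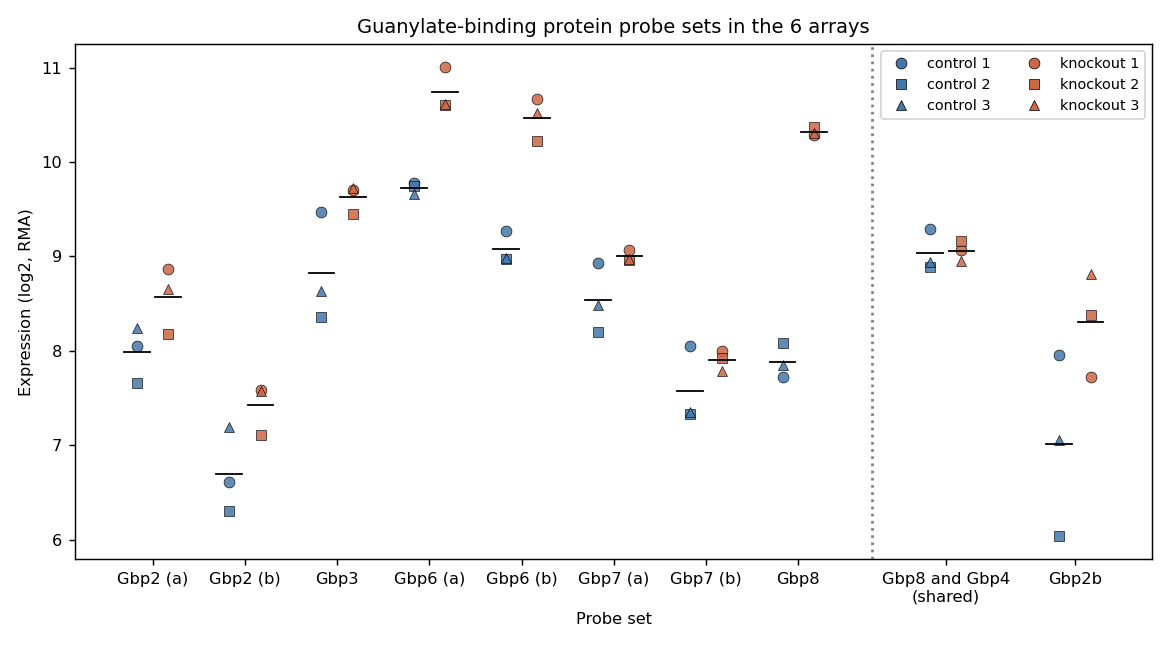
Expression (log2, RMA) of the 8 member probe sets in the 6 arrays, with the shared Gbp8 and Gbp4 probe set and the non-member Gbp2b to the right of the dotted line; each symbol is 1 array, bars are group means, and (a) and (b) are the 2 probe sets of a gene. The Gbp8 and Gbp6 groups are separated widely, while control 1 reaches or nears the knockout arrays on Gbp3 and Gbp7.

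Gbp6, the last protein-coding gene of the chromosome 5 cluster, gave the next largest differences. Its brighter probe set read 9.77, 9.74 and 9.66 in controls 1 to 3 and 11.00, 10.61 and 10.62 in knockouts 1 to 3. The controls spanned only 0.11, and the gap between the groups was 0.83. The means were 9.73 ± 0.056 and 10.74 ± 0.22 (SD, n = 3 each), a difference of 1.01 ± 0.14 (SE) or 2.02-fold. The second probe set read 9.27, 8.98 and 8.98 in controls and 10.66, 10.22 and 10.52 in knockouts, with a gap of 0.95 between the groups. Its difference was 1.39 ± 0.15, or 2.63-fold, so the pair gave the same direction and differed in size by 0.38. Knockout 1 was the highest array on both. Against control 1 alone the differences were 0.97 and 1.20, and with the acinar covariate 1.10 and 1.36. Neither Gbp6 probe set passed the threshold in these fits, while Gbp8 did.

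The members of chromosome 3 differed less and varied more among the controls. Gbp3 read 9.47, 8.35 and 8.64 in controls 1 to 3 and 9.70, 9.44 and 9.72 in knockouts 1 to 3. Control 1 lay just above knockout 2, by 0.030, so the groups overlapped. The means were 8.82 ± 0.58 and 9.62 ± 0.16 (SD, n = 3 each), a difference of 0.80 ± 0.28 (SE). The control SD of Gbp3 stood at percentile 98.5 among the 3208 probe sets within 0.5 of its mean level. Against control 1 alone the difference was 0.15, without control 1 it was 1.13, and with the acinar covariate it was 0.40 ± 0.29.

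Gbp7, which has been tied to the assembly of the phagocyte NADPH oxidase, also had its highest control in control 1. The first probe set read 8.93, 8.20 and 8.49 in controls and 9.06, 8.97 and 8.97 in knockouts. The knockout arrays all lay above the controls, but above control 1 by only 0.032. Its difference was 0.46 ± 0.19 (SE), or 0.066 against control 1 alone. The second read 8.06, 7.33 and 7.35 in controls and 8.00, 7.92 and 7.79 in knockouts, with control 1 above every knockout array. Its difference was 0.33 ± 0.21, and -0.15 against control 1 alone, where the direction turned. With the acinar covariate the differences were 0.22 ± 0.21 and 0.045 ± 0.23.

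Gbp2, a GBP that carries a lipid anchor for membranes, had overlapping groups on both probe sets. The first read 8.05, 7.66 and 8.24 in controls and 8.87, 8.18 and 8.66 in knockouts, where knockout 2 lay 0.063 below control 3. Its difference was 0.58 ± 0.22 (SE). The second read 6.61, 6.30 and 7.19 in controls and 7.58, 7.11 and 7.57 in knockouts, a difference of 0.72 ± 0.25. Its suffix marks probes that the manufacturer flagged as able to match other transcripts. On Gbp2 the highest control was control 3, not control 1, and against control 1 alone the differences were 0.51 and 0.81. With the acinar covariate they were 0.68 ± 0.30 and 0.87 ± 0.33.

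**Figure D2:**
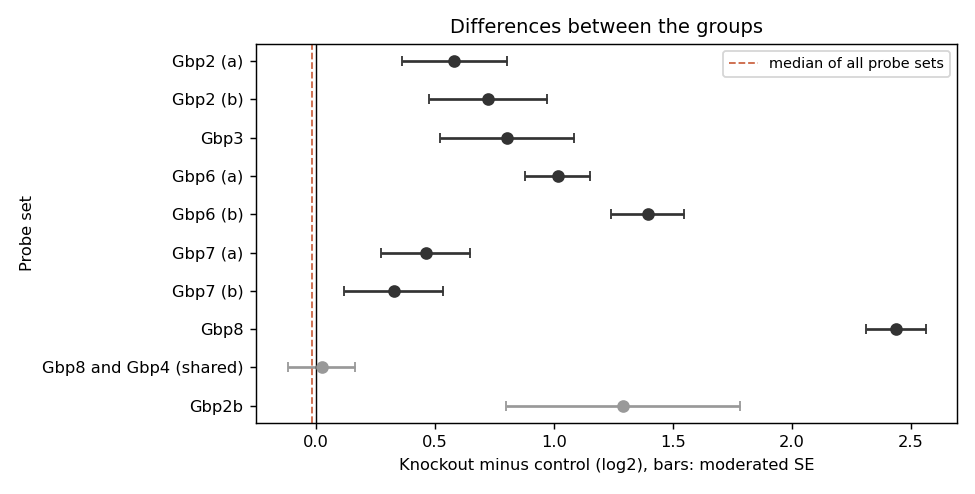
Difference between the group means (knockout minus control, log2) of each probe set with limma's moderated SE; black points are members, grey points the shared probe set and Gbp2b, and the dashed line is the median of all probe sets. Gbp8 stands at 2.44, both Gbp6 probe sets above 1, and the other members between 0.33 and 0.80.

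The probe set shared by Gbp8 and Gbp4 did not follow Gbp8. It read 9.29, 8.89 and 8.94 in controls 1 to 3 and 9.07, 9.17 and 8.95 in knockouts 1 to 3, with overlapping groups and a difference of 0.022 ± 0.14 (SE). Its target accession is a RefSeq transcript of Gbp4, while that of the Gbp8 probe set is a transcript of Gbp8. GBPs of chromosome 5 are close copies of each other, and how each probe set divides its signal among them was not tested. Gbp2b, the family member of chromosome 3 that is outside the rule, read 7.96, 6.04 and 7.05 in controls and 7.73, 8.38 and 8.81 in knockouts. Its difference of 1.29 ± 0.49 had overlapping groups (limma adjusted p = 0.342), and its control SD of 0.96 stood at percentile 99.4 among probe sets of like level.

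Averaged over probe sets, the 3 of Gbp6 and Gbp8 read 8.92, 8.93 and 8.83 in controls and 10.65, 10.40 and 10.48 in knockouts, a difference of 1.62. The 5 of Gbp2, Gbp3 and Gbp7 read 8.23, 7.57 and 7.98 in controls and 8.64, 8.32 and 8.54 in knockouts, a difference of 0.58. The control SD of these averages was 0.057 for the chromosome 5 members and 0.33 for the chromosome 3 members. In the chromosome 5 average opposite orders offset each other: control 1 was the lowest control on Gbp8 and the highest on both Gbp6 probe sets. For single probe sets the median control SD was 0.17 on chromosome 5 and 0.41 on chromosome 3. Whether the clusters differ was not tested, since the same contrast brought the family forward.

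The other genes of the interferon pathway were read in the order in which the signal passes. Of the ligands, Ifng read 2.82, 2.70 and 2.69 in controls and 2.81, 2.64 and 2.87 in knockouts, at percentile 12.8 of all control means, and Ifnb1 stood at percentile 14.7. Both are low on these arrays, which carry no detection call. Among receptor genes, Ifngr2, the signal-transducing chain of the interferon gamma receptor, read 8.26, 8.22 and 8.45 in controls and 9.18, 9.18 and 8.85 in knockouts. Its difference of 0.76 ± 0.14 (SE) did not pass (limma adjusted p = 0.0635). The ligand-binding chain Ifngr1 differed by 0.22 ± 0.16 and the type I receptor gene Ifnar1 by -0.0080 ± 0.11.

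Below the receptors, the kinase genes Jak1 and Jak2 differed by 0.18 ± 0.12 and 0.033 ± 0.11 (SE). Irf1, a transcription factor gene induced by interferon gamma, differed by 0.016 ± 0.11, from 9.81 to 9.83. Stat2 and Irf9, parts of the type I complex, differed by 0.56 ± 0.32 and 0.30 ± 0.31. Usp18, an inhibitor of type I receptor signalling that interferon induces, read 8.25, 7.04 and 7.26 in controls and 8.91, 8.51 and 8.71 in knockouts, a difference of 1.19 ± 0.31 (limma adjusted p = 0.178). The inhibitor gene Socs1 differed by -0.13 ± 0.19. Of the 19 signalling genes measured of 20 listed, 0 passed with limma over all probe sets, 2 had an unadjusted p under 0.05, and 12 had a higher mean. The share of all genes at that unadjusted p is not given here, so nothing is read from such counts, here or below.

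Most interferon targets had a higher mean in the knockout group, with few past the threshold. Of 25 interferon gamma targets, 2 rose, 0 fell and 23 did not pass, and 20 had a higher mean. Of all 18193 genes 1.1% passed, 0.852% as higher and 0.247% as lower, and 50.4% had a higher mean. Cxcl11, a chemokine that draws T cells, rose by 2.40 ± 0.31 (SE, limma adjusted p = 0.0232), from 5.50, 5.69 and 6.61 in controls to 8.33, 8.66 and 8.00 in knockouts. Icam1, a leukocyte adhesion molecule that inflammatory cytokines also induce, rose by 1.11 ± 0.14 (limma adjusted p = 0.0232), from 8.22, 8.50 and 8.65 to 9.43, 9.65 and 9.62. Neither call held against control 1 alone or with the acinar covariate, and each also ended in at least 4 of the 6 fits that left out 1 array. The knockout arrays all lay above the controls for 12 of the 25, and 12.1% of all genes did so. The median difference of the list was 0.29, beside 0.0020 over all genes.

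**Figure D3:**
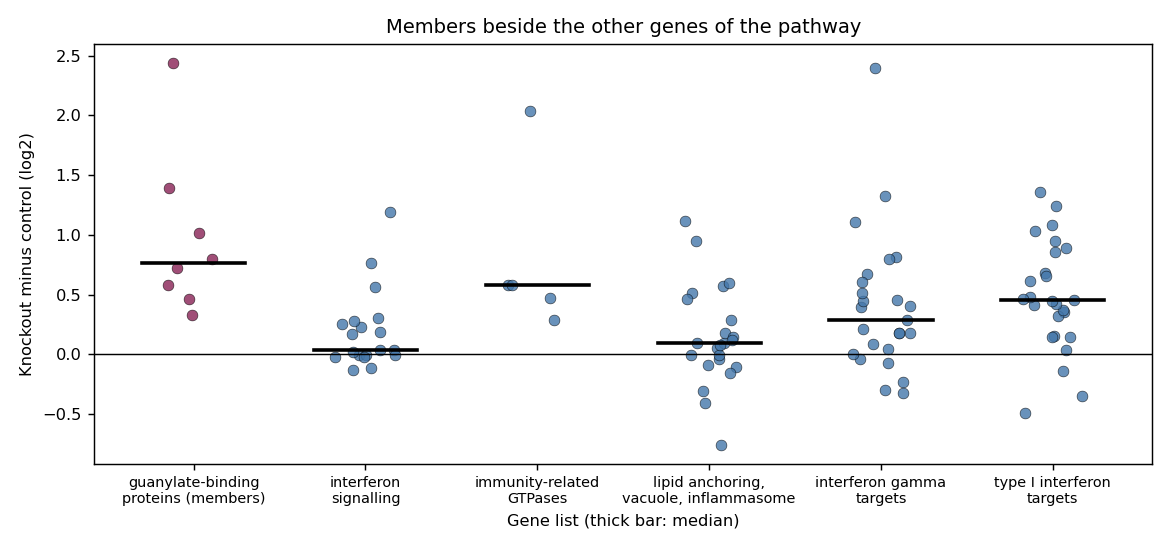
Differences (knockout minus control, log2) of the 8 member probe sets and of the genes of 5 pathway lists, 1 probe set per gene; each point is a probe set and thick bars are medians, with random sideways scatter. The medians are 0.76 for the members, 0.58 for the immunity-related GTPases, 0.45 and 0.29 for type I and gamma targets, and 0.038 for the signalling genes.

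Of 26 type I interferon targets measured of 29 listed, 0 passed with limma and 10 had an unadjusted p under 0.05. In this list 23 had a higher mean and 6 did not overlap upward, beside 50.4% and 12.1% of all genes, and the median difference was 0.45. The smallest p belonged to Zbp1, a sensor of nucleic acids, with 0.95 ± 0.17 (SE, limma adjusted p = 0.0607), and Ifi35 followed with 0.45 ± 0.11 (limma adjusted p = 0.153). The immunity-related GTPases, which act with GBPs on vacuoles, all 5 had higher means and 0 passed, with 1 at an unadjusted p under 0.05. Iigp1 read 7.13, 4.96 and 6.18 in controls and 8.58, 7.53 and 8.28 in knockouts, a difference of 2.04 ± 0.54 (limma adjusted p = 0.183), and Igtp differed by 0.47 ± 0.20. Atlastins, relatives of GBPs that fuse membranes of the endoplasmic reticulum and are not interferon genes, differed by 0.39 ± 0.17 (Atl1) and 0.11 ± 0.11 (Atl3). The other probe set of Atl1 differed by 0.82, and the 4 others of Atl3 by -0.17 to 0.35. Of the 56 interferon-responsive genes of these 3 lists (immunity-related GTPases, gamma targets and type I targets), Cxcl11 had the largest difference. It was 2.40 ± 0.31, within its SE of the 2.44 ± 0.12 of Gbp8, so Gbp8 and Cxcl11 are not ranked.

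Genes for lipid anchoring of GBPs, for their targeting to vacuoles and for inflammasomes gave no call. Of 23 measured, 0 passed with limma and 7 had an unadjusted p under 0.05. In this list 14 had a higher mean and 6 did not overlap upward, beside 50.4% and 12.1% of all genes. The median difference was 0.095. As above, the unadjusted count has no share over all genes beside it. Cybb, the catalytic subunit of the phagocyte oxidase, differed by 0.95 ± 0.18 (SE, limma adjusted p = 0.0807) and Atg7, an enzyme of autophagosome formation, by 0.51 ± 0.12 (limma adjusted p = 0.128). Their other probe sets differed less, the 2 of Cybb by 0.27 and 0.31 and the 3 of Atg7 by -0.10 to 0.32. Casp1, the inflammasome protease gene, read 5.66, 5.12 and 4.79 in controls and 6.43, 5.95 and 6.54 in knockouts, a difference of 1.12 ± 0.25. The other inflammasome genes of the list went in either direction. Nlrp3 and Casp4 differed by 0.46 ± 0.18 and 0.29 ± 0.26, and Pycard, Gsdmd and Aim2 by -0.76 ± 0.29, -0.31 ± 0.14 and -0.086 ± 0.13. The prenyltransferase subunit genes Fntb and Pggt1b, whose enzymes attach lipid anchors, differed by -0.11 ± 0.15 and -0.0028 ± 0.17. Genes named here for their role and not for a small p (Ifng, Ifnb1, Ifngr1, Ifnar1, Jak1, Jak2, Irf1, Stat2, Irf9, Socs1, Casp1, Nlrp3, Casp4, Pycard, Gsdmd, Aim2, Fntb, Pggt1b) were chosen after their values were seen.

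The order of arrays within a group differed between members. Control 1 was the highest control for 25 of 26 type I targets, for 5 of 5 immunity-related GTPases and for 17 of 25 gamma targets, and for 43.3% of all genes. Among the members this held for Gbp3, Gbp6 and Gbp7, on 5 of 8 probe sets, and not for Gbp2 or Gbp8. The median gap between control 1 and the mean of controls 2 and 3 was 0.61 for type I targets, 0.59 for the 5 chromosome 3 probe sets, 0.072 for the 3 of chromosome 5 and 0.047 for all genes. Singly, the chromosome 5 gaps were -0.24 for Gbp8 and 0.072 and 0.29 for Gbp6. Those of chromosome 3 ranged from -0.14 (Gbp2) to 0.98 (Gbp3). Markers of other cell types had this order too: control 1 was the highest control for 9 of 10 endothelial markers, with a median gap of 0.64, and for 7 of 9 fibroblast and stellate cell markers, with a median gap of 0.29. Their part in the order of the GBPs was not tested. Against control 1 alone the median difference fell to -0.050 for type I targets, 0.17 for gamma targets and 0.15 for the chromosome 3 members, and was 1.20 for those of chromosome 5. Within the knockout group, knockout 2 was the lowest array for 6 of 8 member probe sets and 20 of 26 type I targets, beside 37.9% of all genes.

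**Figure D4:**
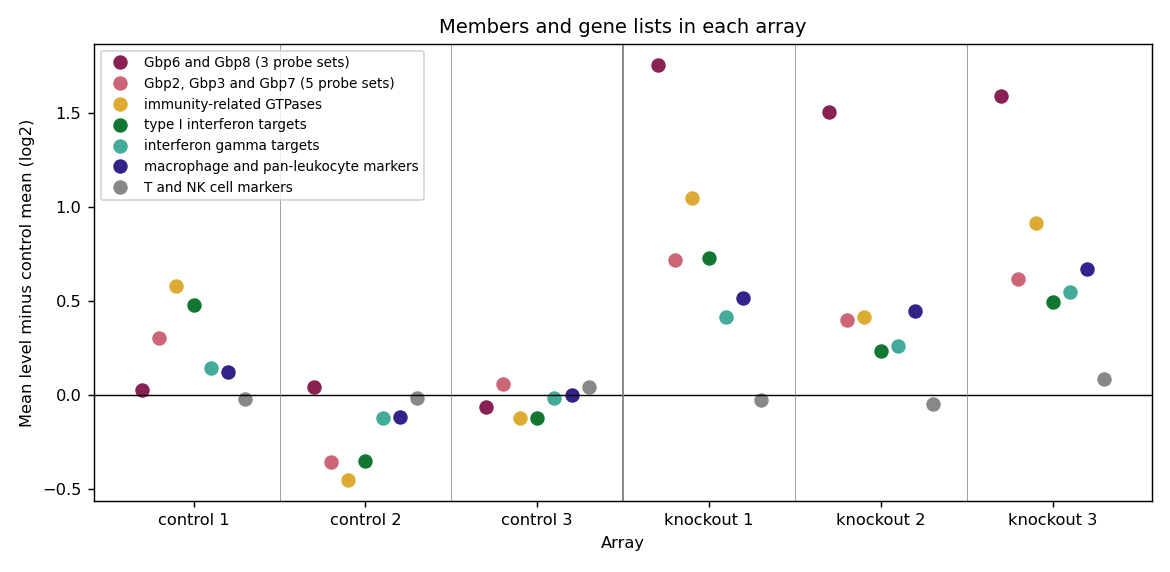
Mean level of the members and of 5 gene lists in each array, minus the mean of the 3 controls (log2); each point is the mean over the probe sets of a list. Type I targets, immunity-related GTPases and the chromosome 3 members are high in control 1 and low in control 2, while the average of Gbp6 and Gbp8 has a control SD of 0.057 and lies higher in every knockout. In that average Gbp8, lowest in control 1, offsets Gbp6, highest there.

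Likeness to the family mean was measured as Pearson's r over the 6 arrays, after subtracting group means. The family mean was the mean level of the 5 member genes. It was compared with 4481 other genes with a within-group SD of at least 0.25. This mean was highest in control 1 and knockout 1 (8.79 and 9.78) and lowest in control 2 and knockout 2 (8.41 and 9.51). Gbp8 ran in the reverse order within each group, so a high r is not likeness to Gbp8. The 10 highest r were those of Fancf (0.996), Ifit1 (0.995), Ncapd2, Unc45b, Gm527 and Mx2 (0.992 each), Slc12a7 and Rnf135 (0.991 each), Zfp963 (0.989) and Stat2 (0.989). Values of this size were not rare over these 6 arrays: 206 of the 4481 genes, 4.60%, had r over 0.9. Why they were so many was not tested. Of the type I targets compared, 12 of 20 had r over 0.9, as did 3 of 4 immunity-related GTPases and 1 of 10 interferon gamma targets, among which Cxcl11 had the lowest r, -0.31. Ifit1, an interferon-induced RNA-binding protein gene, read 10.40, 9.09 and 9.59 in controls and 10.69, 9.85 and 10.39 in knockouts. Its arrays fell in the order of the family mean within each group, while the groups themselves overlapped.

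GBPs are also expressed by immune cells, and in bulk RNA more cells of a type cannot be told apart from more RNA per cell. Of 17 macrophage and pan-leukocyte markers, 15 had a higher mean in the knockout group, 8 did not overlap upward, 1 rose and 16 did not pass. Over all genes 50.4% had a higher mean, 12.1% did not overlap upward and 0.852% passed as higher. Their mean level was 5.89 to 6.13 in controls and 6.46 to 6.68 in knockouts, a difference of 0.54. The gene that rose was Laptm5, which encodes a membrane protein of leukocyte lysosomes, by 1.34 ± 0.11 (SE, limma adjusted p = 0.00425), although its 4 other probe sets differed by -0.041 to 0.57. This call ended without controls 2 and 3, and held in the other 12 of 13 alternative fits. Mrc1, the macrophage mannose receptor, named after its value was seen, differed by 1.19 ± 0.20 (limma adjusted p = 0.0579). Its control mean was dim, at percentile 21.0. Other macrophage markers of the list did not follow it. Itgam and C1qa had a lower mean, by -0.30 ± 0.17 and -0.21 ± 0.30. Lyz2, Adgre1 and Csf1r differed by 0.023 ± 0.15, 0.22 ± 0.20 and 0.25 ± 0.20. Of 15 T and NK cell markers 0 passed with limma and 1 had an unadjusted p under 0.05. Their mean was 3.82 to 3.88 in controls and 3.79 to 3.93 in knockouts, with a median at percentile 23.3 of all control means. Of the markers of B cells (3), dendritic cells (4) and endothelial cells (10), 0 passed with limma, with 1, 1 and 0 at an unadjusted p under 0.05, and mean differences of -0.16, 0.24 and 0.21. The 9 fibroblast and stellate cell markers differed by 0.14, with 0 past the threshold and 2 at an unadjusted p under 0.05. Against control 1 alone the median difference turned from 0.21 to -0.22 for the endothelial markers and from 0.11 to -0.39 for the fibroblast and stellate cell markers. For the 17 macrophage and pan-leukocyte markers the median difference was 0.51 against control 1 alone, beside 0.32 against all controls. The part of immune cells in the GBP differences was not tested.

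Most endocrine, acinar and duct markers had a lower mean in the knockout group. Over all genes 50.4% had a higher mean, and 0.247% passed as lower. Of 8 beta cell markers, at percentile 94.8 or above, 2 had a higher mean and 1 fell (Slc30a8, the zinc transporter of insulin granules, by 0.82, SE 0.12, limma adjusted p = 0.0394). Of 5 delta and PP cell markers 2 fell, the ghrelin receptor gene Ghsr by 1.17 (SE 0.12, limma adjusted p = 0.0097) and the retinol carrier gene Rbp4 by 0.73 (SE 0.098, limma adjusted p = 0.0265). All 3 calls ended with the acinar covariate and without controls 2 and 3, and over the 13 alternative fits Slc30a8 passed in 4, Ghsr in 8 and Rbp4 in 5 (limma adjusted p up to 0.175, 0.119 and 0.154). Of 2 alpha, 12 acinar and 4 duct cell markers 0 passed with limma, with 1, 3 and 2 at an unadjusted p under 0.05, and median differences of -0.44, -3.28 and -0.45. Their part in the GBP differences was not tested beyond the acinar covariate.

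The genes around the GBP clusters were read for comparison. Of the 8 nearest measured genes on either side of each cluster, 16 per chromosome, 0 passed with limma, 4 and 2 had an unadjusted p under 0.05, and the median differences were 0.0077 on chromosome 3 and 0.015 on chromosome 5. On each chromosome 8 of the 16 had a higher mean. Single neighbours ranged from -1.20 (Unc5c) to 0.62 (Rap1gds1) on chromosome 3 and from -1.44 (Dmp1) to 1.27 (Lrrc8c) on chromosome 5. The value of Dmp1 had an SE of 0.78 and overlapping groups, at 5.23, 5.07 and 6.46 in controls and 3.00, 3.46 and 5.98 in knockouts. Next to the chromosome 3 cluster, Pdlim5 differed by -0.44 ± 0.10 (SE), with every knockout array below every control array. On its other side Kyat3 differed by -0.35 ± 0.15, with overlapping groups. The nearest measured gene before Gbp8 was Abcg3, a transporter gene at a dim level, which differed by 0.042 ± 0.16 (SE). The nearest measured gene after Gbp6 and Gbp11 was Lrrc8c, a subunit gene of the volume-regulated anion channel, which read 6.28, 5.86 and 5.37 in controls and 6.97, 7.32 and 7.05 in knockouts. Its difference of 1.27 ± 0.23 did not pass (limma adjusted p = 0.0720), and the next gene measured after it, Lrrc8d, differed by 0.10 ± 0.10. The neighbours were chosen after the member values were seen.

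**Figure D5:**
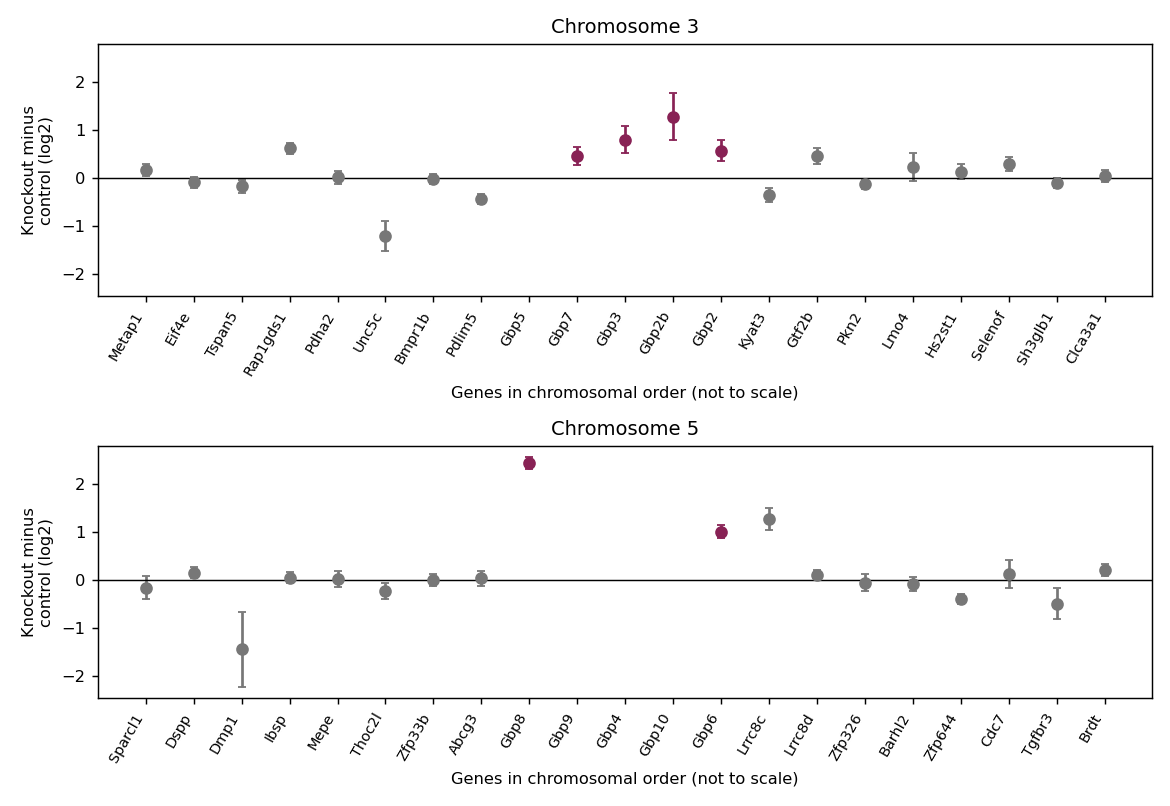
Differences (knockout minus control, log2) with limma's moderated SE of the GBP genes (purple) and of 8 measured genes on either side (grey), in chromosomal order and not to scale; a gene name without a point has no probe set of its own here. Gbp8 (2.44), Gbp6 (1.01) and the measured genes of the chromosome 3 cluster lie above 0, and the median of the flanking genes is 0.0077 on chromosome 3 and 0.015 on chromosome 5. Single flanking genes range from -1.20 to 0.62 on chromosome 3 and from -1.44 to 1.27 on chromosome 5. The -1.44 is Dmp1, with an SE of 0.78 and overlapping groups.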

How the data were processed

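Per the labels' protocols, islets came from collagenase digestion and a Histopaque gradient, and their RNA went through 1 round of amplification with biotin before hybridisation to Affymetrix arrays. The authors deposited 1 log2 value per probe set and array, made with RMA (no version stated) per the submitters' processing notes. RMA normalizes quantiles across arrays and gives no detection call. Precision is limited by the number of arrays, 3 per group.

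Of 45101 probe sets, 64 manufacturer controls were left out. The platform annotation gave 34945 probe sets a single symbol, 932 several and 9160 none; 34741 matched RefSeq by gene identifier, and symbols were updated. The probe set with the highest mean stood for a gene (18193 genes). The knockout and control groups were tested in limma 3.58.1 (R 4.3.3; group as the only term, two-sided), with Benjamini-Hochberg adjustment over all 45037 probe sets; adjusted p under 0.05 was a call. The fit was tested on simulated data.

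The members and lists were chosen with earlier results of these data known, and the ISRE core searched was shortened after a core longer by 1 base had been searched. Named genes were all members, every list gene past the threshold or else the 2 of smallest p (for markers of lists without a call, only those described), and the 10 most like the family; genes named outside this rule are given as such. Alternatives were a replicate block, leaving out each array, 2 further normalizations, an intensity trend, a filter on dim probe sets, the probe set of largest variance for a gene, an acinar covariate, and leaving out controls 2 and 3.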

Additional observations from a re-analysis of the deposited data

How the results depend on the processing

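Gbp8 stayed past adjusted p 0.05 in 13 of 13 alternative fits (limma, 2.36 to 2.60, adjusted p 8.47e-05 to 0.0247). The Gbp6 probe sets did so in 5 and 7 of 13 (adjusted p up to 0.208 and 0.160), Gbp3 in 1, without control 1, and Gbp2 and Gbp7 in 0. The dimmer Gbp7 probe set turned to -0.15 without controls 2 and 3, a fit with a single control that is assumed to vary like the knockouts. Of the 8 member probe sets 3 passed; 1 did with the acinar covariate, 1 without controls 2 and 3, and 1 to 4 when each array was left out. Their median difference of 0.76 lay between 0.55 (without control 2) and 0.89 in those fits. Of 101 pathway genes 2 passed; it was 7 with the intensity trend, 5 among probe sets above the median level, 0 with the acinar covariate, 0 without controls 2 and 3, and 0 to 6 when each array was left out (6 without control 1). Of all probe sets 404 passed, against 887 with the trend, 142 with the acinar covariate, 54 without controls 2 and 3, and 152 (without control 3) to 783 (without control 1) when each array was left out. The cause of these moves was not tested. With the replicate number as a block 246 probe sets passed, 2 of them members and 3 pathway genes; the labels do not tie equal numbers to a shared litter, and deviations of same-numbered arrays correlated at -0.054, 0.14 and 0.0045, so the numbers were not taken as pairs.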
